A study of Mus musculus with 2 samples.

Results

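Rab genes were taken by symbol from the expression tables of mouse uterus, as every gene whose name begins with Rab and a digit. The rule found 68 of the 20634 genes listed. Of these, 59 encode Rab GTPases and 9 encode proteins that bind or regulate them. Values are FPKM, fragment counts scaled for transcript length and for the size of the library. Analysed were the 57 that reached 1 FPKM in at least 1 library, 48 GTPases and all 9 others. The rule uses gene names and, apart from the filter, no measured value. Roles were assigned by hand from known functions. Members and roles were chosen with earlier results of these data known.

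Each of the 2 libraries came from total RNA of the whole uterus of pregnant females aged 6 to 8 weeks on gestational day 4, with the day of the vaginal plug as day 1. One library is labelled Mettl3 f/f and the other Mettl3 ed/ed, and f/f and ed/ed below name the libraries so labelled. Mettl3 encodes the enzyme that writes N6-methyladenosine on RNA. The number of animals behind each library, the promoter or cells of any recombinase and the meaning of the letters are not given in the labels. The comparison asked how expression differed between the genotypes. With 1 library each it has no replicate check, so every difference is between these libraries, with no p-value.

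Rab proteins are small GTPases that act as switches on membranes. Bound to GTP, each recruits its own effectors (motors, tethers and enzymes) to 1 kind of compartment, and after GTP hydrolysis it is taken off the membrane by a carrier protein. The set of Rabs on a vesicle thus marks its place on the route from the endoplasmic reticulum through the Golgi to the surface, or from the surface through endosomes to the lysosome. In the uterine epithelium around implantation these routes serve secretion into the lumen, uptake of luminal fluid and renewal of the apical surface.

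Rab20 was the only Rab gene at least 2-fold higher in ed/ed, at 47.9 FPKM in f/f against 137 in ed/ed. Rab25 and Rab1b were the only ones at least 2-fold lower, Rab25 at 53.8 and 22.3 FPKM and Rab1b at 68.1 and 33.2. Rab20 is an endosomal and phagosomal Rab, Rab25 an epithelial Rab of apical recycling, and Rab1b a Rab of transport from the endoplasmic reticulum to the Golgi. Folds are on the scale of log2 of (FPKM + 1), and 2-fold is a size threshold and not a test. Among all 12165 genes that passed the same filter, 2.68% were higher and 6.22% lower by that threshold (8.90% in all), against 1 and 2 of the 57 Rab genes. With a 1.5-fold threshold, 1 Rab gene was higher and 10 were lower, against 7.04% and 23.4% of all genes (30.5% in all). With ratios centred on the all-gene median, Rab20 alone passed 2-fold, against 4.96% of all genes higher and 2.72% lower (7.68% in all). The Rab shares were below those of all genes under each threshold, but they rest on few genes, so no trait of the family is read from them.

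The promoters of these 3 genes are printed because they are the members past 2-fold. The sequences are those of RefSeq on GRCm38.p6, from 250 bases before the RefSeq start of the gene to 50 after it, 5′ to 3′ on the strand of the gene. Capitals mark matches on either strand to 7 short motifs. The TATA box was searched as TATAAA, the CCAAT box by those letters and the GC box as GGGCGG. The core of the hypoxia element was searched as ACGTG and the STAT element as TTCNNNGAA. The steroid receptor element was searched by the shorter run TGTTCT, and the estrogen receptor element by GGTCA.
Rab20, chr8:11478591-11478890, minus strand: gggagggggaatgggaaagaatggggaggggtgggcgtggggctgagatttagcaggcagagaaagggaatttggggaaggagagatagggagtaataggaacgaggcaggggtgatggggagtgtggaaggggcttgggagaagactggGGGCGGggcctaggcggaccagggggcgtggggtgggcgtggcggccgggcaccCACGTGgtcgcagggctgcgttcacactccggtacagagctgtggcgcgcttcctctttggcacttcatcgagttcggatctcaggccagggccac
Rab25, chr3:88548230-88548529, minus strand: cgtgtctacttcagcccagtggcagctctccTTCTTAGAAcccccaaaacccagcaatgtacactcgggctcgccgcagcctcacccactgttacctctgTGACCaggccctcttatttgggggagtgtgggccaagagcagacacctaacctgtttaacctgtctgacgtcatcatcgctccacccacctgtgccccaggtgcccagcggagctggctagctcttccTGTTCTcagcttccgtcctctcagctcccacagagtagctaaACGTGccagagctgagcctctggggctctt
Rab1b, chr19:5106947-5107246, minus strand: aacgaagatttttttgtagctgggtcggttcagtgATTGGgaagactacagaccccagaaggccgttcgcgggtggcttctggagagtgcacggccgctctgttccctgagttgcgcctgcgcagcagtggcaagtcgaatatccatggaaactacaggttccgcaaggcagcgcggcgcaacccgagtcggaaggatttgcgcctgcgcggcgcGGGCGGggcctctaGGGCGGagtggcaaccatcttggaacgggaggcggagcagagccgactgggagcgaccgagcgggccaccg

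The Rab20 window held a GC box and a palindromic match that gives the hypoxia core on both strands and begins 46 bases before the start. The Rab25 window held 1 match each to the hypoxia core, the STAT element and the steroid and estrogen receptor runs, and no GC box. The Rab1b window held 2 GC boxes and 1 CCAAT box on the opposite strand. Of the 32851 promoters in the table, 35.7% held a GC box, 37.4% a CCAAT box, 19.6% the hypoxia core, 8.30% the STAT element, 18.97% the steroid receptor run and 40.5% the estrogen receptor run. The TATA box was in 13.6% of all promoters, and these 3 windows had no match to it. Of the 54 promoters of the 42 expressed Rab GTPases with an entry, 66.7% held a GC box, 40.7% a CCAAT box and 3.70% the TATA box. The hypoxia core was in 24.1% of them, the STAT element in 9.26%, the steroid receptor run in 18.5% and the estrogen receptor run in 37.0%. The 32851 promoters were not limited to expressed genes, so no trait of the Rab genes is read from these shares. A match is a run of letters and was not tested as a binding site.

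Facts of the whole series bear on these values. Depth, estimated from the spacing of low values, was about 18300000 fragments (f/f) and about 17400000 (ed/ed). Mettl3 was at 10.6 and 10.2 FPKM, so its transcript level did not separate the libraries and does not check the labels. Over all expressed genes the log2 ratios had a median of -0.26, and scaling the libraries in 4 other ways shifted the ratios by 0.09 to 0.36, so each Rab gene is also read against that median. All listed markers of stroma, endothelium, myometrium and epithelium were present in both libraries, but in unequal measure. The 12 stromal markers summed to 1393 FPKM in f/f against 681 in ed/ed (12 of 12 ratios below 1), and the 8 endothelial markers to 181 and 73.9 (8 of 8 below 1). The 8 myometrial markers summed to 561 and 934 (8 of 8 above 1), and the 14 epithelial markers to 2978 and 3187 (10 above 1, 4 below). Gland markers summed to 19.8 and 49.2 FPKM, with Prss28 and Prss29 listed at 0 in both, Lif at 0 in f/f and Ttr at 0 in ed/ed. Spink1 alone made up 15.7 and 36.0 FPKM of these sums. Of the gland markers 3 were 2-fold higher in ed/ed and 0 were 2-fold lower, and most were at low values in f/f. Mast cell and platelet markers summed to 7.76 and 14.1 FPKM and neuronal markers to 1.72 and 0.724, with Cpa3, Fcer1a, Mcpt4 and Elavl4 listed at 0 in both. The markers of oviduct and ovary summed to 44.4 and 64.7 FPKM, of which the oviduct gene Ovgp1 made up 41.0 and 60.8, while Cyp19a1 was listed at 0 in both.

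**Figure D1:**
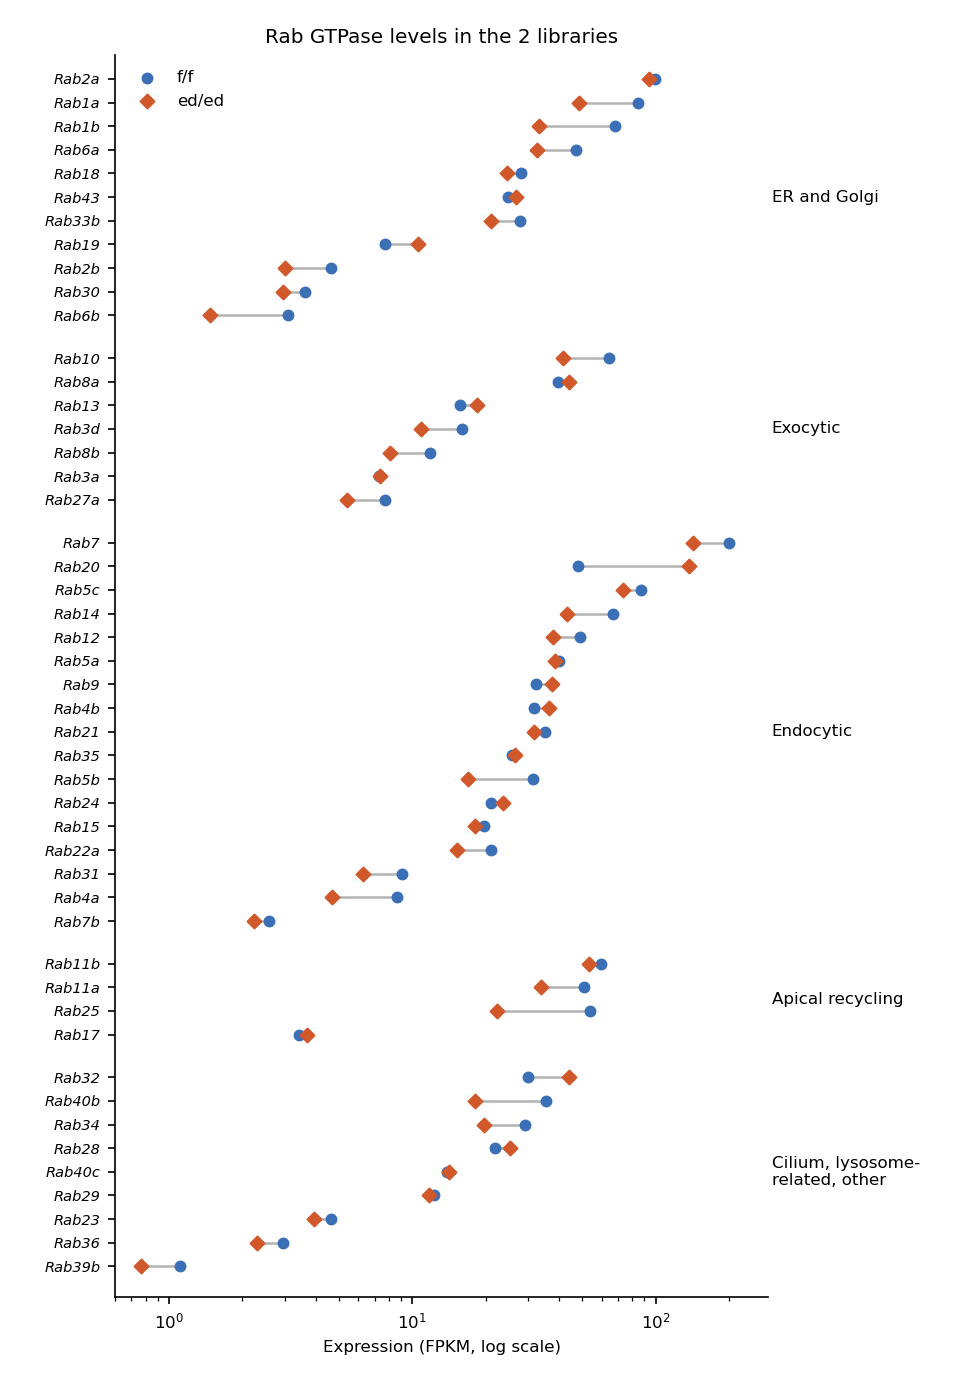
Expression in FPKM on a log axis of the 48 Rab GTPases at 1 FPKM or more in either library, by role, with 1 library per genotype (circle f/f, diamond ed/ed). Rab20 lies apart to the right in ed/ed at 137 FPKM, and Rab25, Rab6b, Rab1b and Rab40b lie to the left, while the other pairs lie closer together.

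As a family, the Rab genes had ratios close to those of all genes. Of the 57, 40 had a log2 ratio below 0, and the same was true of 70.4% of all genes. Their median log2 ratio was -0.23, against -0.26 over all genes. The 48 GTPases summed to 1611 FPKM in f/f against 1379 in ed/ed. Rab7, the Rab of late endosomes and lysosomes, was the most abundant in both, at 201 and 142 FPKM. Rab20 moved from rank 12 to rank 2 among them and from 2.97% to 9.95% of their sum. Rab25 moved from rank 9 to rank 24, and Rab1b from rank 5 to rank 16. Ranks and shares within a library do not depend on how the libraries are scaled.

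Counting error was small beside most of these differences. From the estimated fragments, the 95% exact binomial (Clopper-Pearson) interval of the ratio of ed/ed to f/f FPKM lay below 1 for 28 of the 48 GTPases, above 1 for 9 and across 1 for 11. These intervals cover counting error only and say nothing of the spread between animals. They are set against 1 on the deposited values, where 70.4% of all expressed genes had a log2 ratio below 0. No count of such intervals over all genes is given, so 28 against 9 is not read as a trait of the Rab genes. An interval below 1 can also depend on scaling, as for Rab2a (0.896 to 0.988), which is listed below. On other scalings of the libraries, 36 of the 48 kept the sign of their log2 ratio under all 4, 22 below 0 and 14 above. The other 12 were below 0 as deposited and turned positive under at least 1 scaling, so no direction is given for them. These were Rab2a, Rab5a, Rab5c, Rab7b, Rab11b, Rab15, Rab18, Rab21, Rab23, Rab29, Rab30 and Rab36.

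**Figure D2:**
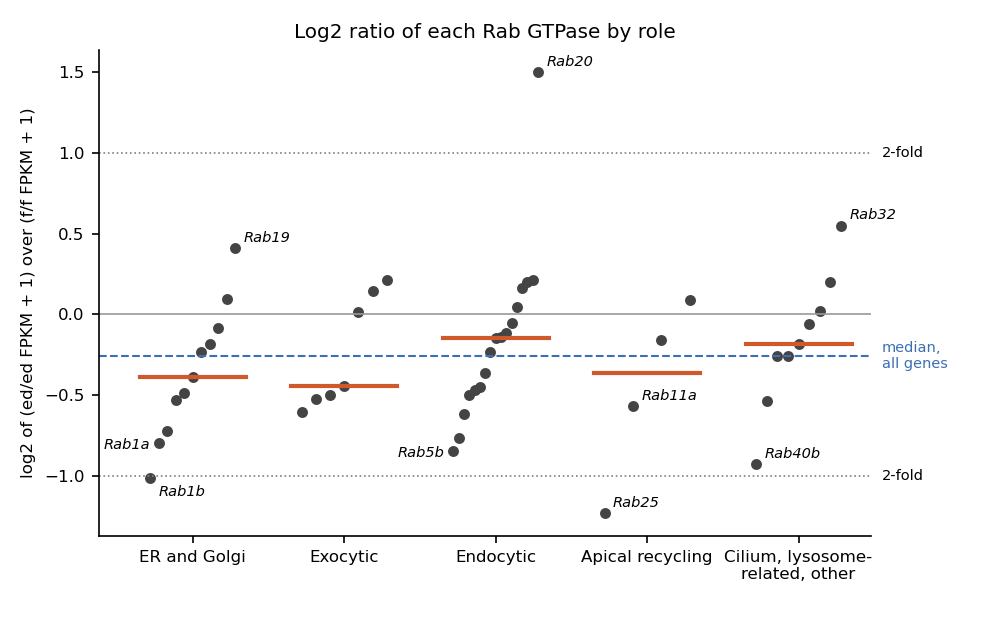
Log2 ratio of ed/ed to f/f, each FPKM raised by 1, for each expressed Rab GTPase, by role. Points are genes, thick lines group medians, the dashed line the median of all genes (-0.26) and dotted lines 2-fold. Only Rab20 lies above the upper dotted line, and Rab25 and Rab1b below the lower.

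The early secretory Rabs, which act between the endoplasmic reticulum and the Golgi, held 24.8% of the summed Rab GTPase level in f/f against 21.6% in ed/ed. Of 12 members, 11 were expressed. None was 2-fold higher, 1 was 2-fold lower, and the median log2 ratio was -0.39, or -0.13 relative to all genes. Rab33a, at 0.793 FPKM for f/f and listed at 0 for ed/ed, fell under the filter.

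Rab1a and Rab1b encode closely related Rabs that tether vesicles arriving at the Golgi, and both had lower values in ed/ed. Rab1b (ENSMUSG00000024870, chromosome 19, 5099205 to 5107072, GRCm38) was at 68.1 FPKM in f/f against 33.2 in ed/ed, with a ratio of 0.488 (counting interval 0.452 to 0.527). Its log2 ratio of -1.01 was the smallest that passed 2-fold. It no longer passed under any of the 4 scalings, at -0.93 to -0.66, after centring on the all-gene median, at -0.75, or without the length trend, at -0.84. Rab1a was at 85.0 and 48.5 FPKM, a log2 ratio of -0.80. Together the pair summed to 153 FPKM in f/f against 81.7 in ed/ed, with Rab1b at 44.5% and 40.7% of the sum. The summed stromal and endothelial markers in ed/ed were at 0.489 and 0.408 of their f/f sums, and their part in the Rab1 values was not tested.

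Rab2a, which acts in traffic between the Golgi and the endoplasmic reticulum, was at 99.6 and 93.7 FPKM, the second most abundant GTPase in f/f. Its paralogue Rab2b was at 4.61 and 2.997 FPKM. Rab1b was at 0.684 of the Rab2a level in f/f against 0.355 in ed/ed. Rab6a, which directs transport within and back through the Golgi, was at 47.2 and 32.4 FPKM, and Rab6b at 3.09 and 1.47. Rab18, a Rab of the endoplasmic reticulum and lipid droplets, was at 28.0 and 24.6 FPKM. Rab19 had the highest ratio of the group, at 7.72 and 10.6 FPKM. The other expressed members, Rab30, Rab33b and Rab43, had log2 ratios from -0.39 to 0.10.

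The exocytic Rabs, which bring vesicles and granules to the plasma membrane, had 7 expressed members of 13. None passed 2-fold in either direction, and their median log2 ratio was -0.45, or -0.19 relative to all genes. Rab10, which delivers cargo to the basolateral membrane and glucose transporters to the surface, was the most abundant at 64.2 FPKM in f/f against 41.8 in ed/ed. Its paralogue in exocytosis Rab8a, which serves apical delivery and cilia, was at 39.7 and 43.9 FPKM, so the order of the pair was reversed in ed/ed. Rab8b was at 11.8 and 8.07 FPKM. The Rab8 pair summed to 51.5 and 52.0 FPKM, with Rab8b at 22.9% and 15.5%.

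Regulated secretion uses Rab3 and Rab27. Rab3d, the Rab3 of exocrine granules, was at 15.98 FPKM in f/f against 10.8 in ed/ed, and Rab27a, which docks granules and lysosome-related organelles, at 7.70 and 5.39. Rab3a, best known from synaptic vesicles, was at 7.26 and 7.33 FPKM. Rab13, a Rab of tight junction assembly, was at 15.7 and 18.4 FPKM. The 6 exocytic members under 1 FPKM were Rab3b (0.193 and listed at 0), Rab3c (0.105 and listed at 0), Rab26 (listed at 0 in both), Rab27b (0.170 and 0.423), Rab37 (0.947 and 0.407) and Rab44 (0.0974 and 0.0795). Rab37 lay just under the filter, whereas Rab39b, at 1.11 and 0.768 FPKM, lay just above it.

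The endocytic Rabs formed the largest group and held 45.3% of the summed level in f/f against 50.2% in ed/ed. Of 18 members 17 were expressed, 1 was 2-fold higher and 0 were 2-fold lower. Their median log2 ratio was -0.15, or 0.11 above the median of all genes. Rab9b was listed at 0 in both libraries.

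Rab20 (ENSMUSG00000031504, chromosome 8, 11453518 to 11478710, GRCm38) acts on early endosomes and on phagosomes, whose maturation it promotes in macrophages. It was at 47.9 FPKM in f/f against 137 in ed/ed, 2.83-fold higher, with a ratio of 2.86 (counting interval 2.66 to 3.08). Its log2 ratio of 1.499 lay at percentile 99.1 of all expressed genes. It stayed past 2-fold under every alternative tried, from 1.43 with a pseudocount of 5 FPKM to 1.85 with reference gene scaling. In f/f Rab20 was at 0.238 of the level of Rab7, and in ed/ed at 0.965. The annotated exon of the non-coding gene E230013L22Rik overlaps 356 of the 1392 exonic bases of Rab20 on the opposite strand, and without strand their reads cannot be told apart.

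Macrophages are 1 cell type that carries Rab20, and their markers are given beside it. The 8 macrophage and leukocyte markers summed to 247 FPKM in f/f against 326 in ed/ed, with 6 of 8 ratios above 1, 3 of them past 2-fold, and 0 markers listed at 0. Aif1 was at 7.27 and 22.3 FPKM, a log2 ratio of 1.495, and Lyz2 at 86.6 and 188. Ratios below 1 were those of Csf1r at 3.97 and 3.02 FPKM and of Cd14, 2-fold lower, at 114 and 47.2. Other marker sums were higher in ed/ed too, among them gland (2.49 times the f/f sum), myometrium (1.66 times) and epithelium (1.07 times). Those of stroma (0.489) and endothelium (0.408) were lower. The part of leukocytes or of any other cell type in the Rab20 value was not tested.

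The 3 Rab5 genes encode the Rabs of early endosome fusion. Rab5c was at 86.9 FPKM in f/f against 73.8 in ed/ed, Rab5a at 40.1 and 38.6, and Rab5b at 31.3 and 17.0. Rab5b thus had the lowest log2 ratio of the endocytic group, -0.85, and made up 19.8% of the Rab5 sum in f/f against 13.1% in ed/ed. A similar asymmetry was seen in the Rab4 pair, which drives fast recycling to the surface. Rab4a was at 8.61 and 4.66 FPKM and Rab4b at 31.8 and 36.6, so that Rab4a held 21.3% and 11.3% of a sum of 40.4 and 41.2 FPKM. Exons of Rab4b overlap the gene Gm21983 on the same strand over 1280 of 1970 exonic bases, so the Rab4b value and the Rab4 shares are uncertain. These ratios between paralogues show unequal change within the pair and not that either member was constant.

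Rab7 was at 201 FPKM in f/f against 142 in ed/ed, a log2 ratio of -0.50, and its paralogue Rab7b at 2.58 and 2.23. Rab9, which returns receptors from late endosomes to the Golgi, had values of 32.2 and 37.4 FPKM. Rab14, of the route between endosomes and the Golgi, was at 66.8 and 43.1 FPKM. Rab12, Rab21, Rab22a and Rab31 had log2 ratios from -0.47 to -0.14, and Rab15, Rab24 and Rab35 from -0.12 to 0.16. Apart from Rab20, the endocytic group held no log2 ratio above 0.21.

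The apical recycling Rabs carry membrane proteins back to the apical surface of polarised epithelia. The 4 members are Rab11a and Rab11b, the general Rabs of recycling endosomes, and Rab17 and Rab25, which are largely epithelial. Of these 0 were 2-fold higher and 1 was 2-fold lower, with a median log2 ratio of -0.36, or -0.10 relative to all genes. Their summed level was 10.4% of the Rab GTPase total in f/f against 8.20% in ed/ed.

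Rab25 (ENSMUSG00000008601, chromosome 3, 88542029 to 88548300, GRCm38) was at 53.8 FPKM in f/f against 22.3 in ed/ed, 2.35-fold lower, with a ratio of 0.414 (counting interval 0.363 to 0.472). Its log2 ratio of -1.23 was the lowest of all 57 members. It stayed past 2-fold under sum and upper quartile scaling, at -1.15 and -1.03, and without the length trend, at -1.17. It missed 2-fold under median ratio scaling, at -0.96, reference gene scaling, at -0.89, and after centring on the all-gene median, at -0.97. Rab11a was at 50.6 and 33.8 FPKM, Rab11b at 59.7 and 53.3, and Rab17 at 3.42 and 3.70. Rab25 therefore held 32.8% of the summed level of Rab11a, Rab11b and Rab25 in f/f against 20.4% in ed/ed, while the Rab11b share was 36.4% and 48.7%.

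The log2 ratio of Rab25 lay below those of all 14 epithelial markers. None of the 14 was at 0, and their sum in ed/ed was 1.07 times that in f/f. Epcam was at 131 FPKM in f/f against 194 in ed/ed, and the E-cadherin gene Cdh1 at 151 and 228, whereas the keratin gene Krt19 had the lowest log2 ratio of the list, -0.80, at 388 and 222 FPKM. The ratio of Rab25 to Epcam was 0.411 in f/f against 0.115 in ed/ed, that of Rab25 to Cdh1 0.357 and 0.0980, and that of Rab25 to Krt8 0.125 and 0.0726. In whole tissue, fewer cells of a type and less RNA per cell cannot be told apart.

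**Figure D3:**
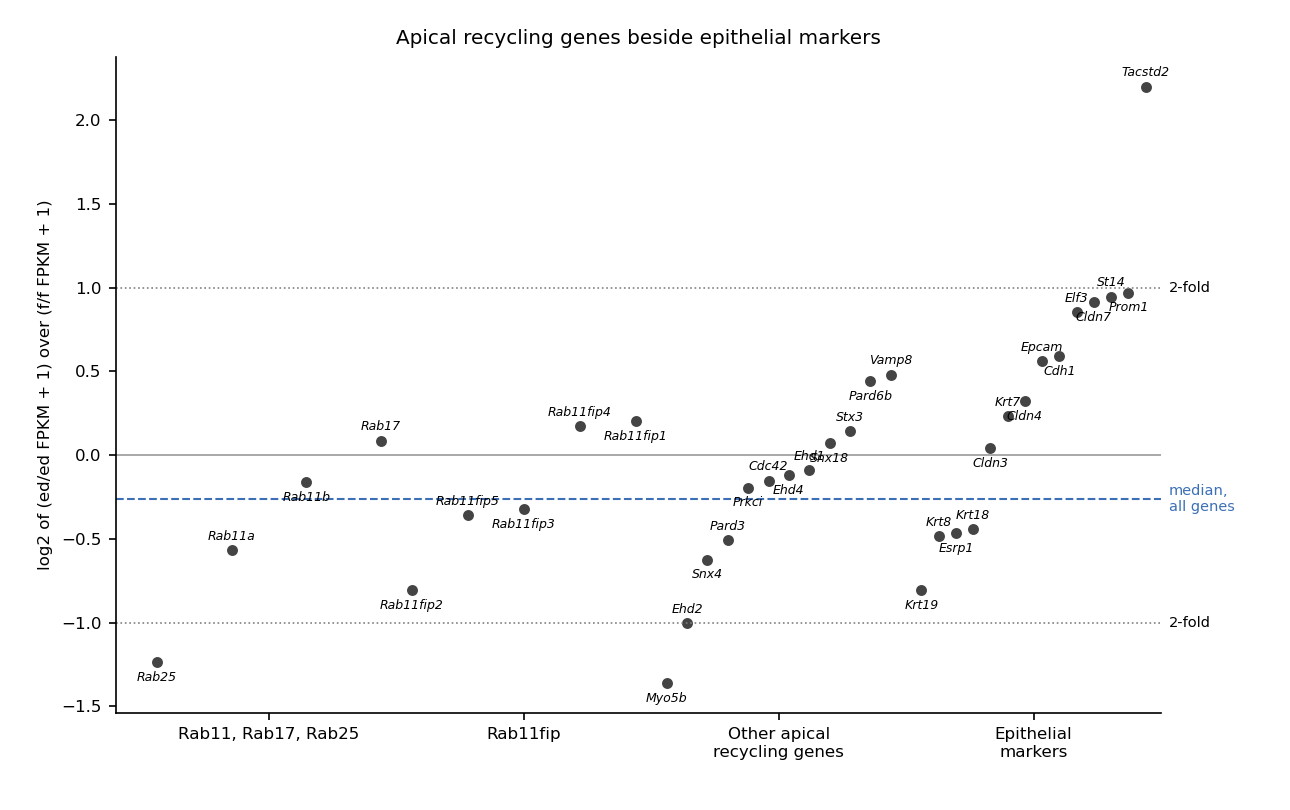
Log2 ratio of ed/ed to f/f for the 4 apical recycling Rabs, the 5 Rab11fip genes, 12 expressed genes of other apical recycling proteins and 14 epithelial markers, with 1 point per gene. Rab25 and Myo5b lie below the lower 2-fold line (dotted) and Ehd2 on it, while 10 of the 14 epithelial markers lie above 0.

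The Rab11fip genes share the symbol stem but encode effectors that link Rab11 and Rab25 to motors and tethers. All 5 were expressed and none passed 2-fold. Rab11fip2, which connects Rab11 to the motor myosin Vb, was at 6.91 FPKM in f/f against 3.52 in ed/ed, a log2 ratio of -0.81. Rab11fip1, also called Rab coupling protein, was at 9.60 and 11.2 FPKM, Rab11fip3 at 6.45 and 4.96, Rab11fip4 at 0.923 and 1.17, and Rab11fip5 at 9.94 and 7.53. Of 14 further genes of apical recycling, 12 were expressed. Past 2-fold there were 2, both lower in ed/ed, and the list median was -0.14 on the log2 scale. Myo5b, the gene of myosin Vb, was at 7.96 and 2.49 FPKM, a log2 ratio of -1.36. It also passed 2-fold in 5 of the 6 settings that shift all ratios, and missed it without the length trend, at -0.97. Ehd2, at 44.6 and 21.7 FPKM, passed in none of the 6. Its protein is best known from the neck of caveolae, which are abundant in endothelium, muscle and fat.

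The remaining Rab GTPases act at cilia, lysosome-related organelles or in ubiquitin ligases. Of 12, 9 were expressed and none passed 2-fold, with a median log2 ratio of -0.18, or 0.08 above that of all genes. Rab32, which serves lysosome-related organelles and is active in phagocytes, was at 29.8 FPKM in f/f against 44.1 in ed/ed, a log2 ratio of 0.55 and the second highest of all members. It moved from rank 21 to rank 7 among the GTPases, and the part of the leukocyte markers above in its value was not tested. Its partner Rab38 was at 0.164 FPKM and listed at 0. Rab40b, whose protein carries a SOCS box and joins a ubiquitin ligase, was at 35.4 and 18.1 FPKM, a log2 ratio of -0.93, and its paralogue Rab40c at 13.9 and 14.2.

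Rab34, needed for cilium formation and Hedgehog signalling, was at 29.0 and 19.7 FPKM, and Rab23, an inhibitor of Hedgehog signalling, at 4.63 and 3.96. Rab28, a ciliary Rab, was at 21.8 and 25.2 FPKM, and Rab29 and Rab36 had log2 ratios of -0.06 and -0.26. Besides Rab38, the genes under 1 FPKM were Rab39, listed at 0 and at 0.406, and Rab42, at 0.285 and 0.203. The 4 regulators with the stem Rab3 all lay within 2-fold. Rab3ip, which encodes the Rab8 activator Rabin8, had the highest ratio of these at 28.3 and 35.8 FPKM. Rab3gap1 and Rab3gap2, whose proteins form a complex that inactivates Rab3 and activates Rab18, were at 14.7 and 11.6 and at 6.12 and 4.50 FPKM, and Rab3il1 at 4.38 and 3.80.

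**Figure D4:**
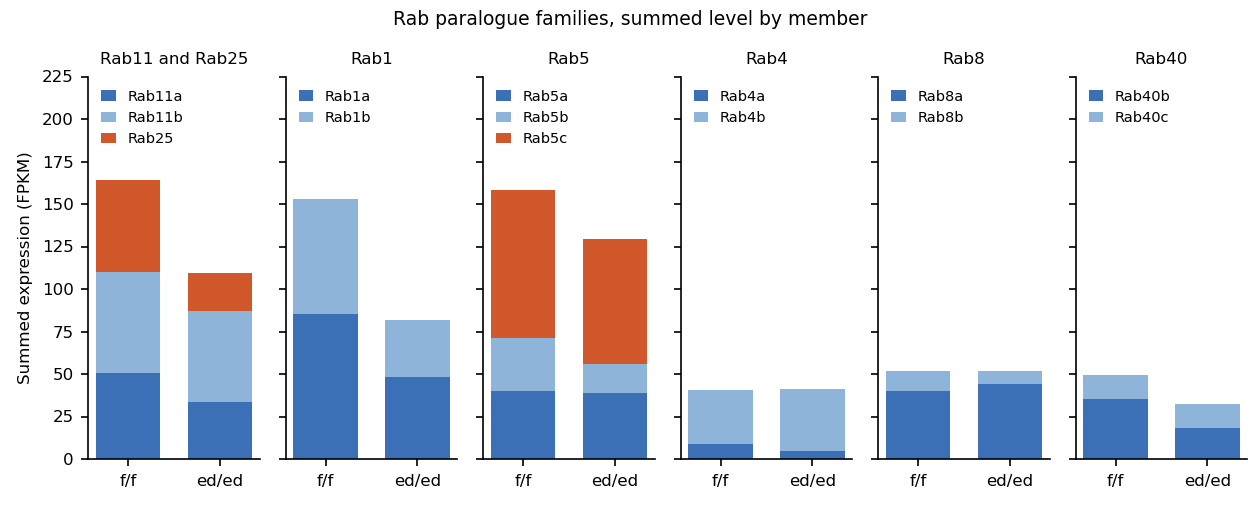
Summed FPKM of 6 Rab paralogue families in each library, stacked by member, with 1 library per genotype. The Rab25 segment shrinks from 32.8% to 20.4% of its bar, and the Rab1 bar from 153 to 81.7 FPKM, while the Rab8 and Rab4 bars are nearly as tall in ed/ed as in f/f (1.01 and 1.02 times).

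Other genes of the Rab cycle were taken from 7 lists of known regulators and effectors, including the apical recycling list above. Of 165 genes, 155 were expressed, 10 were 2-fold lower and 0 were 2-fold higher, against 6.22% and 2.68% of all genes. Their median log2 ratio of -0.26 equalled that of all genes to 2 decimals. Ric1, Erc1 and Myrip were 2-fold lower also in all 6 settings that shift the ratios. In the other direction, Rilp was 2-fold higher in 5 of the 6 and Tbc1d9 in 4, though not as deposited. Both had low values, Rilp at 0.571 FPKM in f/f against 1.98 in ed/ed and Tbc1d9 at 1.30 and 3.01.

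The carriers and prenylation enzymes, which load and unload Rabs from membranes, had 0 of 8 past 2-fold, with Gdi2 at 162 FPKM in f/f against 116 in ed/ed. Of 33 expressed exchange factors, which switch Rabs on, 1 was lower. This was Ric1, which forms the Rab6 activator with Rgp1, at 34.4 FPKM in f/f against 11.3 in ed/ed. Of 33 GTPase-activating proteins, which switch Rabs off, 3 were lower, all close to the threshold. Rabgap1 was at 15.7 and 7.13 FPKM, Tbc1d16 at 5.89 and 2.30, and Tbc1d22a at 11.1 and 4.80.

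Of 22 expressed exocytic effectors, 2 were lower. Myrip, which links Rab27a on granules to myosin and actin, had the lowest ratio of all these genes at 6.24 and 0.688 FPKM, and the exocyst subunit gene Exoc6, whose protein binds Rab11, was at 9.32 and 4.03. Of 18 Golgi effectors, 2 were lower. Erc1, which captures Rab6 vesicles at the cell cortex, was at 20.0 and 6.23 FPKM. Kif20a was at 13.4 and 5.42 FPKM, and although it was first described as a Rab6 binding protein it is a kinesin of cytokinesis. None of 29 endocytic effectors passed 2-fold as deposited. The lowest ratio belonged to Rufy1, at 14.7 and 6.86 FPKM, and the highest to Rilp, at a log2 ratio of 0.92.

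**Figure D5:**
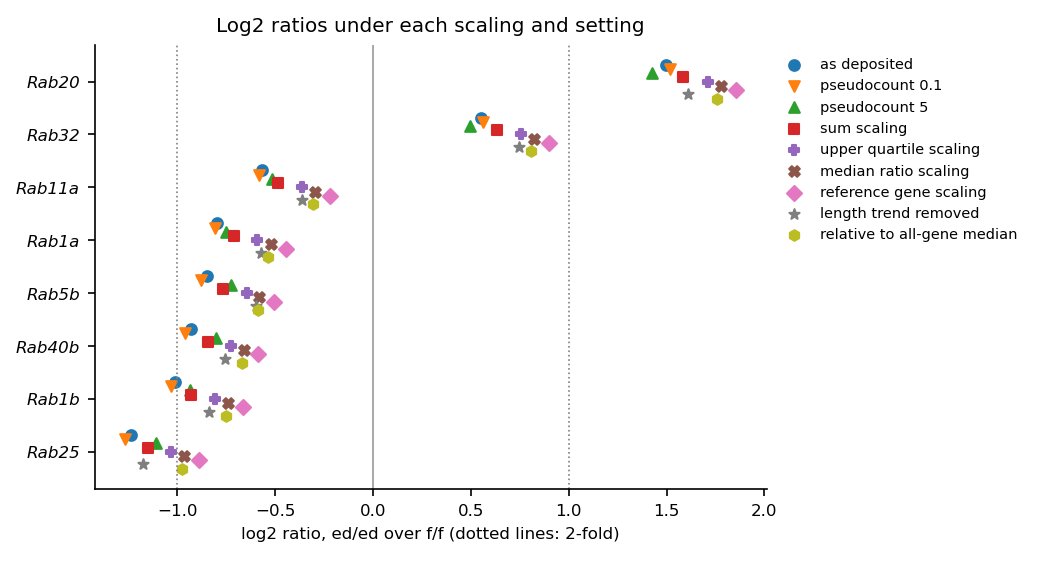
Log2 ratio of ed/ed to f/f of 8 Rab genes under the values as deposited and 8 alternatives, with 2-fold marked by dotted lines. Rab20 lies right of 1 in every setting, Rab25 straddles -1, and Rab1b passes -1 only as deposited and with the smaller pseudocount.

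Sequence features of the transcripts were compared as a description. The longest coding transcripts of the 48 GTPases had a median length of 2824 bases, against 3097 over 12111 genes with a length. Their log2 ratios had a Spearman rho with length of -0.23, close to the -0.22 over all genes. GGACT, the best known motif at which the Mettl3 complex methylates RNA, was searched on the transcript strand and occurred 0.904 times per kilobase in the median Rab GTPase and 1.05 times over all genes. It was missing from 4 of the 48 and from 925 of the 12111. The 4 were Rab1a, Rab1b, Rab14 and Rab9, the first 3 with log2 ratios of -0.62 or lower and Rab9 at 0.21. Over the 48 genes rho between the log2 ratio and GGACT per kilobase was 0.28, and over all genes 0.05, in the same pair of libraries. Methylation itself was not measured.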

How the data were processed

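RNA was isolated with TRIzol and sequenced from TruSeq libraries, per the labels' protocols. The authors deposited 1 table per library, whose values were taken as FPKM made with HISAT2 2.2.1 and Cufflinks 2.2.1, per the submitters' processing notes, which name mm9 and mm10 without a role. The header names no unit, so FPKM is an inference. Strand, annotation and multi-read handling: not given in the sources used here.

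Genes that reached 1 FPKM in at least 1 library were compared as log2 of (ed/ed + 1) over (f/f + 1), and 2-fold was the rule of size. Members, roles and lists were chosen with earlier results of these data known. Named were all members past 2-fold, in each role the 4 largest ratios and 3 highest levels, paralogues of members past 2-fold, all apical recycling members, and up to 4 genes past 2-fold per list. Others were named to account for every member.

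Depth came from the spacing of low FPKM in genes with 1 transcript over 1000 nt, with 250 nt taken off the length as an assumption. Intervals used 95% exact binomial limits and cover counting error only. GENCODE M21 (GRCm38) gave coordinates, transcripts and overlaps for 20557 genes by Ensembl identifier. It locates genes, not reads. Lengths were found for 12111 of the 12165 genes. Of the list genes, Dennd2b was not matched. Copies were sought with blastn 2.17.0 (95% identity over 300 nt). Of the 57 expressed members 16 share such a stretch with another gene, so their values are uncertain. For Rab2a, Rab5b, Rab6a, Rab7, Rab9 and Rab11b such a stretch lies in a gene that does not overlap them. For the others it lies in a gene whose exons overlap their own, as for Rab20 (with E230013L22Rik) and Rab4b (with Gm21983). Exons of 18 GTPases overlap another gene, some of them counted above, and their values are uncertain too. Analyses used Python 3.11.15, pandas 2.3.3, scipy 1.17.1 and statsmodels 0.14.6, and the scripts were tested on simulated data. There were 11 alternatives, among them 4 scalings.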

Additional observations from a re-analysis of the deposited data

How the results depend on the processing

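Rab20 was the 1 Rab gene 2-fold higher under all 11 alternatives. The count of Rab genes 2-fold lower, 2 as deposited, was 3 with a pseudocount of 0.1 FPKM, where Rab6b also passed at a log2 ratio of -1.02. It was 1 with a pseudocount of 5 FPKM, with sum or upper quartile scaling and without the length trend. It was 0 with median ratio or reference gene scaling and after centring on the all-gene median, and 10 by a 1.5-fold rule, which 23.4% of all genes passed. The Rab median log2 ratio of -0.23 became -0.018 (median ratio), -0.072 (upper quartile), 0.042 (reference genes), 0.0255 (length trend removed) and 0.027 (centred). For other genes of the Rab cycle the count lower, 10 as deposited, was 13 with a pseudocount of 0.1, 2 with a pseudocount of 5, 6 (sum), 4 (median ratio, upper quartile, reference genes and relative to all genes), 3 (length trend removed) and 35 (1.5-fold). The count higher, 0 as deposited, was 2 with a pseudocount of 0.1, by 1.5-fold, with median ratio or reference gene scaling, without the length trend and relative to all genes, and 1 (upper quartile). Their median was 0.0009, -0.058, 0.0665, 0.0725 and 0.0023 with median ratio, upper quartile, reference genes, length trend removed and relative to all genes. The count lower among all genes also rose with a pseudocount of 0.1 and fell with a pseudocount of 5 or sum scaling. Of all genes 6.22% were lower as deposited, 23.4% by 1.5-fold and 2.72% relative to their median. Those higher were 2.68%, 7.04% and 4.96%. Shifts of the counts between settings are therefore not read as a trait of the Rab genes or of the Rab cycle. Role medians relative to all genes moved by more than 0.1 (log2) only with the filter on low values, a tolerance about as large as most of these medians, and by less under other settings. Without a filter they were -0.44 (early secretory), -0.14 (endocytic), -0.36 (apical recycling) and -0.14 (cilium and other), and at 5 FPKM they were -0.03, -0.31 and 0.24 for early secretory, apical recycling and cilium and other. Without a filter the median of all genes itself went from -0.26 to 0, while that of the apical recycling group stayed at -0.36. At 5 FPKM the median of all genes was still -0.26, and the members that enter these groups changed. With 1 library per genotype the spread between animals is not known, and depth limits the precision of low members most. No paired analysis was possible because each genotype has 1 library and no test was made.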

Other observations

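Other families of membrane traffic, chosen by symbol after values of the Rab genes were seen, are given as values. None of 6 Arf and 18 expressed Arl GTPases passed 2-fold, with median log2 ratios of 0.07 and -0.31. Of 13 expressed syntaxins, the fusion proteins that Rab effectors engage, 2 were 2-fold lower. Both act on endosomes. Stx12 was at 93.7 FPKM in f/f against 38.0 in ed/ed and Stx8 at 33.4 and 10.9. Genes of the translocon and of the COPI and COPII coats, which act beside Rab1, had 0 of 22 past 2-fold and a median log2 ratio of -0.44. The translocon subunit gene Sec61b went the other way, at 216 and 335 FPKM. Of 28 expressed sorting nexins 1 was 2-fold higher and 2 were lower, all under 10 FPKM.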
